A study of Mus musculus with 9 samples.

Results

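Among 49315 genes counted in mouse RAW 264.7 cells, 32 named genes stayed at or below 30% of their control level both with pamidronate plus geranylgeraniol (GGOH) and with pamidronate alone. They were chosen from group means of CPM, the count of a gene scaled to a total of 1000000 counts in every library. A gene had to average 5 CPM or more in control and at most 0.3 of that mean in each treated group, and genes with no name, predicted Gm names or Rik names were left out. Of 9205 named genes at 5 CPM or more in control, 692 stood at 30% or less with pamidronate, and in 660 of these the mean with GGOH lay above that limit. The remaining 32 are described here, so their distance from control is how they were picked and carries no test. A single named gene met the limit with pamidronate plus GGOH and not with pamidronate, the desaturase gene Scd1, at 25.8% of control with pamidronate + GGOH and 79.8% with pamidronate.

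RAW 264.7 is a mouse macrophage line that RANKL, the cytokine that drives osteoclast formation, turns towards osteoclast-like cells. The pamidronate + GGOH cells received 140 µM pamidronate with 5.25 µM GGOH, the pamidronate cells received 140 µM pamidronate, and the control cells received neither. By the growth notes, which every sample shares, all 3 groups were grown for 24 h before 20 ng/ml RANKL was added, pamidronate followed at 48 h, and cells were collected 24 h later. The control samples are labelled only as untreated, and the RANKL in them rests on those shared notes. Each group had 3 libraries of ribosomal-RNA-depleted total RNA from 1 cell line. The labels call the control replicates biological and do not say so of the treated ones, so the p-values measure the spread between these libraries.

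Pamidronate is a nitrogen-containing bisphosphonate that blocks farnesyl pyrophosphate synthase, the enzyme that supplies isoprenoid chains to small GTPases and sterols to the cell. GGOH can be converted to geranylgeranyl pyrophosphate and so feeds protein geranylgeranylation downstream of the block, without feeding farnesylation or cholesterol synthesis. Macrophages carry a surface set of pattern receptors, chemokine receptors and scavengers that is held in place by transcription factors such as PU.1 and c-Maf, and much of it is known to be given up as precursors become osteoclasts.

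The libraries held 14356069 to 18957968 counted reads. Of 10 macrophage markers, 9 matched a single row of the table, and all 9 were above 1 CPM in every group. Their summed level ranged over 8247 to 11870 CPM with pamidronate + GGOH, 5417 to 7451 CPM with pamidronate and 16935 to 20013 CPM in control. Lyz2 made up most of it, at 6448, 4186 and 12762 CPM in these groups. With pamidronate + GGOH 8 of the 9 averaged below control, all but Cd14 (745 against 639 CPM), and with pamidronate all 9 did. Osteoclast markers summed to 354 to 358 CPM with pamidronate + GGOH, 343 to 474 CPM with pamidronate and 196 to 233 CPM in control, with Calcr at 0 in the pamidronate and control libraries. Of these 10 markers, 2 averaged below control in each treated group. Atp6v0d2 averaged 138, 264 and 54.4 CPM in the same order of groups, and Nfatc1 89.5, 82.6 and 126 CPM. Of 25 osteoclast genes tested in a wider list, 10 were higher and 10 lower with pamidronate + GGOH than in control (26.3% and 26.0% of all genes). With pamidronate 9 were higher and 11 lower (36.2% and 32.9%). Fibroblast, neutrophil and epithelial marker sums reached at most 6.58 CPM in any library. The 10 B cell markers summed to 38.4 to 90 CPM with pamidronate + GGOH, 30.1 to 37.8 CPM with pamidronate and 103 to 141 CPM in control, mostly as Ighm (54.2, 29.3 and 124 CPM in these groups). Cd79b, Ms4a1, Pax5, Ebf1 and Blk were at 0 in control. Only 1 of the 10 B cell markers averaged below control with pamidronate + GGOH and 2 with pamidronate, Ighm among them in both. Reads from mitochondrially encoded genes took 5.43 to 6.31% of counts with pamidronate + GGOH, 3.71 to 5.19% with pamidronate and 10.4 to 10.8% in control. The part of these marker levels and shares in the results was not tested. In these bulk samples, fewer cells of a type and less RNA per cell cannot be told apart.

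A pair of libraries bears on what follows. Pamidronate + GGOH replicate 3 was the highest of its group in 29 of the 32 genes, where it was the highest for 45.5% of the 9205 genes. Control replicate 1 was the lowest of its group in 20 of the 32, and the share of the 9205 genes for which it was the lowest was not counted. The 32 genes summed to 393, 514 and 818 CPM in pamidronate + GGOH replicates 1, 2 and 3, to 220, 199 and 156 CPM in the pamidronate replicates, and to 2612, 3004 and 2784 CPM in the control replicates. Without pamidronate + GGOH replicate 3 the rule selects 78 genes, of which 31 are among the 32 and Clec4a2 is the one lost. Without control replicate 1 it selects 60, of which 31 are among the 32 and Rcbtb2 is the one lost.

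Several of the 32 lie side by side in the genome, and 2 of them share promoter letters. The windows below, from RefSeq on GRCm38.p6, are the 150 bases that end at the annotated transcription start, written 5′ to 3′ on the gene's strand. Ms4a6b (chr19:11518409-11518558, plus strand) and Ms4a6c (chr19:11469218-11469367, plus strand) are shown because they had 2 of the 3 largest increases with GGOH, and the capitals mark an identical run of 48 bases. The run ends 70 bases before the Ms4a6b start and 1 base before the Ms4a6c start, and no window of another gene in the RefSeq table held it.
Ms4a6b: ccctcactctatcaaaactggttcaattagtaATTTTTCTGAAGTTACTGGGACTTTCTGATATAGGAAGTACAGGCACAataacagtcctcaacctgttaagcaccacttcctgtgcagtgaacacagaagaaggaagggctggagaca
Ms4a6c: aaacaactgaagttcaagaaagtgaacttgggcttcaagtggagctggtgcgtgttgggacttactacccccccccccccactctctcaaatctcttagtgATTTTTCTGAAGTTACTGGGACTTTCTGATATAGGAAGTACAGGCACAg
Abca1 (chr4:53159896-53160045, minus strand) is shown because its mean was lower with GGOH than without, and the capitals mark the letters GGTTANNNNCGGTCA on the opposite strand, the direct repeat known as the LXR response element of this gene.
Abca1: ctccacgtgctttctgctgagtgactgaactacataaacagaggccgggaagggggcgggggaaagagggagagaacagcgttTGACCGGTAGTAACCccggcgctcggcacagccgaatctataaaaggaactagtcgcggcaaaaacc
Mrc1 (chr2:14229264-14229413, plus strand) is shown as an example of a gene with the PU.1 core GAGGAA, here in capitals as its complement on this strand.
Mrc1: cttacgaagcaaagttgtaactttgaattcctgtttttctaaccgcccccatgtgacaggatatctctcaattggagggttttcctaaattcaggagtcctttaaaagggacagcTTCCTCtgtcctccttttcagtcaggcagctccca

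Windows of 300 bases, from 250 before to 50 after the start, were found for 24 of the 32 genes. Some RefSeq starts lay far from the start of the counted gene, by 19473 bases for Rcbtb2, 16262 for Clec4a2, 7553 for Clec12a and 2047 for Ms4a6b. For Tmem176a, Rcbtb2, Slc9a9, Hpgd and C1qb, the bases checked after the start were not found in a GENCODE transcript of the gene. The windows of Tmem176a and Tmem176b overlap and are counted separately. The PU.1 core GAGGAA, read on both strands, was present in 11 of the 24 (45.8%), against 28.3% of all 32851 windows. The LXR repeat was present in Abca1 alone among the 24, and in 4 of all 32851 windows (0.0122%). These are the exact letters known from Abca1, so the match there was fixed in advance. Other forms of the repeat were not searched, so the count cannot show that other genes lack one. The other motifs searched on both strands were TATAAA (20.8% of the 24 windows against 13.6% of all), TGCTGA, part of the Maf recognition element (20.8% against 19.5%), CCAAT (25% against 37.4%), TGACG, the core of the cAMP response element (12.5% against 20.8%), the AP-1 site as TGAGTCA or TGACTCA (8.33% against 5.2%) and the E-box CACGTG (4.17% against 7.15%). None of these sets of letters contains another, although TGACG and TGACTCA share TGAC and TGCTGA ends in the TGA that opens both AP-1 forms. A match describes letters in a window only.

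As a group the 32 genes stood at a median of 22.1% of control with pamidronate + GGOH (0.347 to 29.8%) and 4.66% with pamidronate (1.07 to 26.1%). Without pamidronate + GGOH replicate 3 the first median was 16.1%, and without control replicate 1 the medians were 20.2% with pamidronate + GGOH and 4.49% with pamidronate. In 31 of the 32, every treated library lay below every control library, which holds for 21.5% of the 9205 genes and follows largely from the rule. The exception was Cd300e. With pamidronate, 7 of the 10 genes and 21 of the 50 genes with the lowest percent of control, among the 9205, belonged to the 32. The rule caps that same percent, so their place in this ranking follows in part from how they were picked. Their summed exon length had a median of 3586 bases, against 4001 bases for the 660 other genes lowered by pamidronate.

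**Figure D1:**
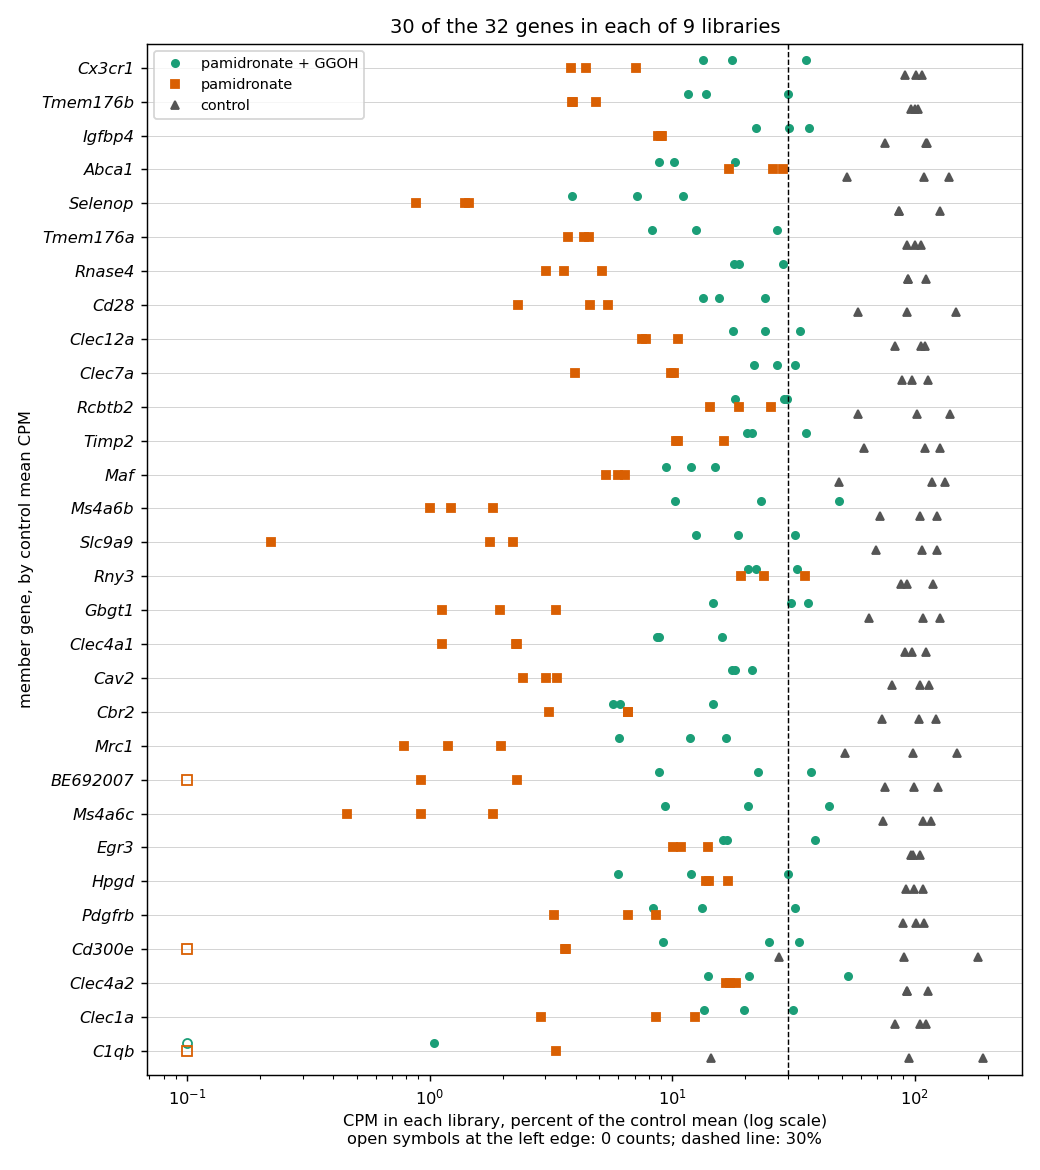
CPM of 30 of the 32 genes in each of the 9 libraries, as percent of the gene's control mean on a log axis, with genes ordered by control mean. The pamidronate + GGOH libraries (circles) mostly lie between the pamidronate libraries (squares) and the control libraries (triangles), and Abca1, Hpgd and Rny3 are among the genes where the 2 treated groups overlap.

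The contrast between pamidronate + GGOH and pamidronate was not thresholded by the rule, although the rule caps both means, and it was tested with edgeR's quasi-likelihood test over all 15963 genes that passed a count filter. All 32 genes passed the filter, 31 of them on the treated libraries alone, with C1qb the exception. With GGOH 22 of the 32 genes rose relative to pamidronate (adjusted p under 0.05, Benjamini-Hochberg), where 25.2% of all genes tested were called higher. None was called lower, where 23.6% of all genes were, while 1 of the 32, Abca1, was lower at an unadjusted p under 0.05. DESeq2, limma-voom and a fit of only the 2 groups each called that gene lower, and DESeq2 called 25 higher and limma-voom 19. The median log2 fold change was 1.81 over the 32 and 0.00 over all genes tested. In the other named genes lowered by pamidronate, the median percent of control was 21% with pamidronate and 59.5% with pamidronate + GGOH. Both sets were picked for a low pamidronate mean, which enters this contrast. The other set was also picked for a mean with GGOH above the limit. Whether the 32 rose more often than other genes lowered by pamidronate was not tested. By the libraries themselves, 24 of the 32 had all 3 pamidronate + GGOH values above all 3 pamidronate values, against 47.2% of the 9205 genes, 0 lay wholly below, against 22.6%, and 8 overlapped. The mean with pamidronate + GGOH covered a median of 14.9% of the gap between the pamidronate and control means, with Ms4a6b highest at 26.5% and Abca1 lowest at -15.1%. The rule caps the mean with pamidronate + GGOH at 30% of control, so this share could not exceed 30% in any of the 32.

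**Figure D2:**
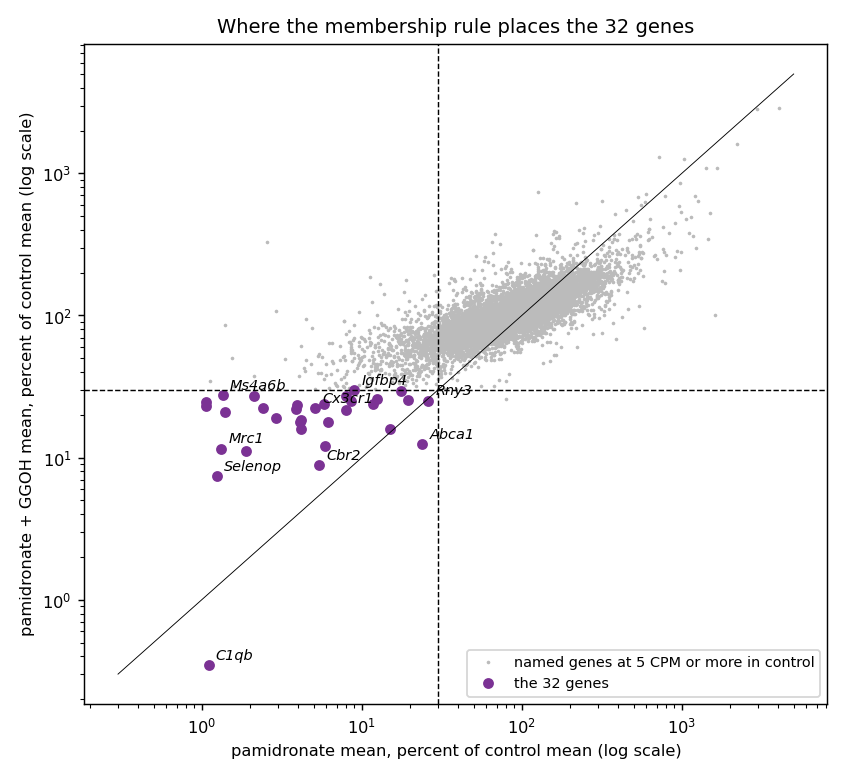
Mean with pamidronate + GGOH (vertical) against mean with pamidronate (horizontal), both as percent of the control mean on log axes, for named genes at 5 CPM or more in control with a mean above 0 in both treated groups. Dashed lines mark 30%, the solid line marks equal means, and 29 of the 32 genes lie above that line.

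Among the transcription factors, Maf, which encodes c-Maf, a factor of mature macrophages, had 3.13, 3.97 and 4.95 CPM with pamidronate + GGOH, 1.98, 2.12 and 1.76 CPM with pamidronate and 16.2, 44 and 39 CPM in control. Its treated groups did not overlap, but the log2 difference of 0.87 ± 0.43 was not called (SE, adjusted p = 0.122, and 0.00211 to 0.348 over the alternative settings). Control replicate 1 was far below the other 2 controls of Maf, and the gene was called higher with GGOH without that library (adjusted p = 0.00211) or without control replicate 2 (0.0481), and also with DESeq2 (0.0234), with only the 2 groups compared (0.0102) and without a count filter (0.0176). Egr3, an early growth response factor, had 1.54, 1.6 and 3.7 CPM with pamidronate + GGOH, 0.961, 1.33 and 1.03 CPM with pamidronate and 10, 9.31 and 9.15 CPM in control. Its controls were tight, and its increase of 0.89 ± 0.34 was the smallest called (adjusted p = 0.0417), with replicate 3 high and the other 2 pamidronate + GGOH libraries close to the pamidronate ones. The call was lost without pamidronate + GGOH replicate 3 or without any 1 of the 3 pamidronate libraries, with an adjusted p of up to 0.313, and also with limma-voom (0.114) and with only the 2 groups compared (0.0714).

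In the wider list of 68 macrophage transcription factors tested, 3 are genes that the rule picked for a low level in both treated groups. Of the other 65, 39 were lower and 8 higher with pamidronate + GGOH than in control, against 26.0% lower and 26.3% higher among all genes. With pamidronate, 37 of the 65 were lower and 13 higher than in control, against 32.9% lower and 36.2% higher among all genes. Between the treated groups, 27 of the 65 were higher and 19 lower with GGOH, against 25.2% and 23.6% of all genes. The non-members with the highest control level were Mycn, Zeb2 and Mef2c. With pamidronate + GGOH, with pamidronate and in control, Mycn averaged 589, 251 and 868 CPM, Zeb2 593, 705 and 560 CPM, and Mef2c 187, 58.3 and 364 CPM. Mycn and Mef2c were lower than control in both treated groups, while Zeb2 was higher than control with pamidronate (log2 0.27 ± 0.09, adjusted p = 0.0172) and did not pass the test with pamidronate + GGOH (log2 -0.15 ± 0.09, adjusted p = 0.197). The mean CPM and the log2 value of Zeb2 with pamidronate + GGOH point in opposite directions because CPM carries no TMM factors. Without factors, the median log2 value of all genes in that comparison was 0.23 higher.

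Cx3cr1, the receptor for the chemokine fractalkine and the most abundant of the 32 genes by CPM, had 66.3, 87.3 and 177 CPM with pamidronate + GGOH, 35.1, 21.8 and 19 CPM with pamidronate and 530, 502 and 450 CPM in control. The 3 groups did not overlap, and pamidronate + GGOH replicate 3 was well above replicates 1 and 2. The difference between the treated groups was 1.96 ± 0.42 on the log2 scale (adjusted p = 0.00792). Cx3cr1 was the sole member among 35 chemoattractant and purine receptors tested. Of the other 34, 21 were higher and 4 lower with GGOH than without, against 25.2% and 23.6% of all genes. Against control, 22 of the 34 were lower and 9 higher with pamidronate (32.9% and 36.2% of all genes). With pamidronate + GGOH 11 of the 34 were lower and 8 higher than in control, near the 26.0% and 26.3% of all genes. Among these P2ry6 had 118, 12.9 and 292 CPM with pamidronate + GGOH, pamidronate and control, and C5ar1 had 125, 13.2 and 274 CPM.

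The C-type lectin and lectin-like receptors were the largest family. Clec12a, an inhibitory receptor of myeloid cells, had 12.7, 17.3 and 24 CPM with pamidronate + GGOH, 7.51, 5.57 and 5.35 CPM with pamidronate and 79, 75.5 and 59.5 CPM in control. Clec7a, which encodes the beta-glucan receptor dectin-1, had 14, 17.4 and 20.7 CPM with pamidronate + GGOH, 6.55, 6.35 and 2.55 CPM with pamidronate and 73.2, 62.9 and 57 CPM in control. Both had 3 separate groups, and both rose with GGOH, by 1.38 ± 0.25 (adjusted p = 0.00111) for Clec12a and 1.58 ± 0.31 (adjusted p = 0.00279) for Clec7a on the log2 scale. Clec1a had 0.86, 1.25 and 1.99 CPM with pamidronate + GGOH, 0.541, 0.786 and 0.182 CPM with pamidronate and 5.27, 7.03 and 6.67 CPM in control. Its increase of 1.27 ± 0.43 rested on 67 reads against 25 (adjusted p = 0.024) and was lost when pamidronate + GGOH replicate 3, pamidronate replicate 1 or pamidronate replicate 3 was left out, where its adjusted p reached 0.113.

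Clec4a1 and Clec4a2 belong to the DCIR-related lectins. Clec4a1 had 1.84, 1.88 and 3.42 CPM with pamidronate + GGOH, 0.24, 0.484 and 0.486 CPM with pamidronate and 19.5, 23.7 and 20.7 CPM in control. Clec4a2, whose product is the inhibitory receptor DCIR, had 0.922, 3.48 and 1.37 CPM with pamidronate + GGOH, 1.14, 1.21 and 1.09 CPM with pamidronate and 6.12, 6.13 and 7.44 CPM in control. Clec4a1 rose by 2.39 ± 0.34 on the log2 scale (adjusted p = 5.43e-05), whereas the treated groups of Clec4a2 overlapped and its 0.54 ± 0.39 was not called (adjusted p = 0.275), except without pamidronate + GGOH replicate 1 (adjusted p = 0.0443). Whether these 2 changes differ from each other was not tested. Mrc1, the mannose receptor CD206, had 0.922, 1.81 and 2.56 CPM with pamidronate + GGOH, 0.12, 0.302 and 0.182 CPM with pamidronate and 7.91, 22.9 and 15.1 CPM in control. Its groups were separate although its controls were widely spread, with a log2 increase of 2.93 ± 0.73 (adjusted p = 0.00754) that limma-voom did not call (adjusted p = 0.0698).

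Of the 28 scavenger and lectin receptors tested, 5 are among the 32. Of the other 23, 15 were higher and 3 lower with GGOH than without (25.2% and 23.6% of all genes), and 11 were lower and 5 higher with pamidronate + GGOH than in control (26.0% and 26.3% of all genes). Against control, 17 of the 23 were lower and 1 higher with pamidronate (32.9% and 36.2% of all genes). Among these 23, Cd33 averaged 160 CPM with pamidronate + GGOH, 27 CPM with pamidronate and 530 CPM in control, and at 30.2% of control with pamidronate + GGOH lay just outside the rule. Siglec1 averaged 299, 4.9 and 348 CPM and Colec12 392, 125 and 332 CPM with pamidronate + GGOH, with pamidronate and in control. With pamidronate + GGOH neither passed the test against control (log2 -0.44 ± 0.39, adjusted p = 0.386 for Siglec1 and log2 0.01 ± 0.09, adjusted p = 0.922 for Colec12).

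Ms4a6b and Ms4a6c, members of the 4-span MS4A membrane protein family, and the noncoding RNA BE692007 had the 3 largest log2 increases with GGOH among the called genes. Ms4a6b had 3.07, 6.9 and 14.6 CPM with pamidronate + GGOH, 0.3, 0.544 and 0.365 CPM with pamidronate and 21.4, 31.3 and 36.7 CPM in control. Ms4a6c had 1.23, 2.72 and 5.87 CPM with pamidronate + GGOH, 0.24, 0.0605 and 0.122 CPM with pamidronate and 9.76, 15.5 and 14.3 CPM in control. The pamidronate + GGOH libraries of both genes were widely spread, with replicate 1 lowest and replicate 3 highest, and still lay apart from both other groups. The log2 increases were 4.16 ± 0.77 for Ms4a6b (adjusted p = 0.00352) and 4.32 ± 0.77 for Ms4a6c (adjusted p = 0.00134). BE692007 lies over Ms4a6c on the other strand and had 1.17, 3 and 4.95 CPM with pamidronate + GGOH, 0, 0.302 and 0.122 CPM with pamidronate and 9.97, 13.1 and 16.6 CPM in control (log2 4.20 ± 0.79, adjusted p = 0.00174). Its summed reads of 149 with pamidronate + GGOH, 7 with pamidronate and 718 in control were nearly those of Ms4a6c, at 162, 7 and 721 in these groups, and since no strand setting is given the 2 genes cannot be told apart.

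Of the remaining surface proteins, Cd28, best known as a costimulatory receptor of T cells, had 9.77, 11.4 and 17.7 CPM with pamidronate + GGOH, 3.97, 1.69 and 3.34 CPM with pamidronate and 42.5, 68.1 and 108 CPM in control. It rose with GGOH by 1.95 ± 0.49 on the log2 scale (adjusted p = 0.0144), a call lost without pamidronate + GGOH replicate 3 (adjusted p = 0.0582). The T cell markers Cd3g, Cd8a, Cd8b1 and Zap70 were at 0 in every control library. Only 1 of the 10 T cell markers averaged below control with pamidronate + GGOH and 2 with pamidronate, Cd28 among them in both. The 10 T cell markers summed to 21.2 to 25.5 CPM with pamidronate + GGOH, 8.65 to 14.7 CPM with pamidronate and 46.8 to 112 CPM in control. Most of that sum was Cd28 and Lck, a kinase gene that averaged 7.78 CPM with pamidronate + GGOH, 7.3 CPM with pamidronate and 3.76 CPM in control, and Lck exceeded Cd28 with pamidronate only. Pdgfrb, a receptor for platelet-derived growth factor, had 1.23, 0.766 and 2.96 CPM with pamidronate + GGOH, 0.3, 0.605 and 0.791 CPM with pamidronate and 10.1, 8.25 and 9.33 CPM in control. Its treated libraries overlapped, and its increase of 1.41 ± 0.49 (adjusted p = 0.0313) was lost without pamidronate + GGOH replicate 3, pamidronate replicate 1 or pamidronate replicate 2, where its adjusted p reached 0.178, and with limma-voom (0.0863). Cd300e, an activating receptor of myeloid cells, averaged 1.5 CPM with pamidronate + GGOH, 0.162 CPM with pamidronate and 6.68 CPM in control, and was not called (log2 3.00 ± 1.20, adjusted p = 0.0722). That call too depended on the setting, since Cd300e was called higher with DESeq2 (adjusted p = 0.0101), with only the 2 groups compared (0.00364), and without control replicate 1 (0.00846) or control replicate 3 (0.0165).

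**Figure D3:**
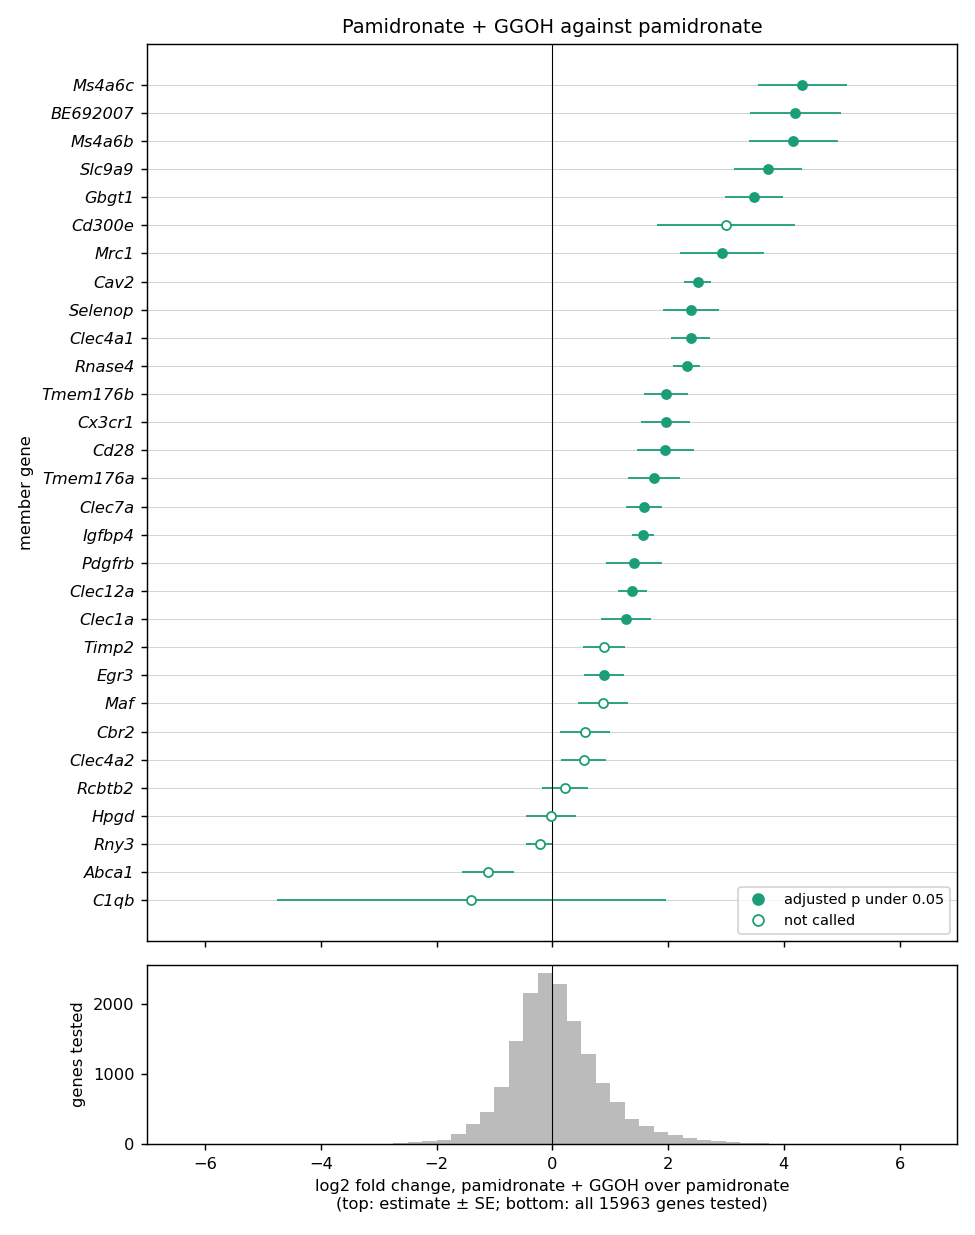
Log2 fold change of pamidronate + GGOH over pamidronate with its standard error for 30 of the 32 genes (top, filled circles called at an adjusted p under 0.05) and the distribution of the same quantity over all 15963 genes tested (bottom). Called values run from 0.89 for Egr3 to 4.32 for Ms4a6c, and the lowest of the others, C1qb at -1.40, has an error of 3.36.

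Genes for channels, transporters and lipid efflux formed the next group. Tmem176b, which encodes an intracellular cation channel protein, had 34.5, 40.8 and 89 CPM with pamidronate + GGOH, 14.4, 11.4 and 11.6 CPM with pamidronate and 306, 298 and 287 CPM in control. Its relative Tmem176a had 13.8, 21 and 45.3 CPM with pamidronate + GGOH, 7.63, 7.26 and 6.26 CPM with pamidronate and 169, 178 and 157 CPM in control. The controls of both were tight, at a coefficient of variation of 3.25% for Tmem176b and 6.39% for Tmem176a, and in both pamidronate + GGOH replicate 3 was more than double the other 2 libraries. The log2 increases were 1.97 ± 0.38 (adjusted p = 0.00429) for Tmem176b and 1.76 ± 0.45 (adjusted p = 0.0157) for Tmem176a, the second lost without pamidronate replicate 3 (adjusted p = 0.0601).

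Slc9a9, a sodium/proton exchanger of endosomes, had 3.44, 5.08 and 8.77 CPM with pamidronate + GGOH, 0.601, 0.484 and 0.0608 CPM with pamidronate and 18.9, 29.2 and 33.8 CPM in control. It rose with GGOH by 3.73 ± 0.59 on the log2 scale (adjusted p = 0.000867), with no overlap between groups. Cav2, which encodes caveolin-2, averaged 3.8 ± 0.39 CPM with pamidronate + GGOH, 0.585 ± 0.0936 CPM with pamidronate and 20 ± 3.54 CPM in control (SD, n = 3 each). Its pamidronate + GGOH libraries were the closest together of the genes named here, and its log2 increase was 2.51 ± 0.23 (adjusted p = 1.49e-06 by edgeR).

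Abca1, which moves cholesterol and phospholipid out of the cell onto apolipoproteins, had 17.2, 19.9 and 35.5 CPM with pamidronate + GGOH, 50.7, 55.8 and 33.4 CPM with pamidronate and 102, 213 and 270 CPM in control. Unlike most of the 32, its mean was lower with GGOH, at 12.4% of control, than without it, at 23.9%, although replicate 3 of the 2 treated groups crossed. The log2 difference of -1.11 ± 0.45 was not called (adjusted p = 0.0822) and its adjusted p ran from 0.0205 to 0.234 over the alternative settings. In the list of 41 lipid genes tested, 39 are not among the 32. Of these, 15 were higher and 15 lower with GGOH than without (25.2% and 23.6% of all genes), and 22 were lower and 9 higher with pamidronate + GGOH than in control (26.0% and 26.3% of all genes). Among these 39, with pamidronate + GGOH, with pamidronate and in control, Lipa averaged 807, 717 and 890 CPM, Apobec1 232, 282 and 533 CPM, and Soat1 496, 376 and 519 CPM.

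Among the secreted proteins, Igfbp4, an insulin-like growth factor binding protein, had 45.7, 62.3 and 75.5 CPM with pamidronate + GGOH, 17.9, 18.7 and 18.4 CPM with pamidronate and 155, 231 and 230 CPM in control. The groups were separate, with a log2 increase of 1.57 ± 0.19 (adjusted p = 7.39e-05), and the mean with pamidronate + GGOH, at 29.8% of control, was the closest to the limit of the rule. Rnase4, a secreted ribonuclease, had 25.9, 24.8 and 39.4 CPM with pamidronate + GGOH, 7.03, 4.9 and 4.14 CPM with pamidronate and 129, 154 and 129 CPM in control. It rose by 2.32 ± 0.23 (adjusted p = 2.7e-05), and it shares exons on the same strand with Ang, which averaged 1.96 CPM with pamidronate + GGOH, 1.45 CPM with pamidronate and 4.3 CPM in control.

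Selenop, the selenium carrier selenoprotein P, had 6.7, 12.5 and 19.2 CPM with pamidronate + GGOH, 2.52, 2.42 and 1.52 CPM with pamidronate and 149, 221 and 150 CPM in control. At 7.37% of control with pamidronate + GGOH and 1.24% with pamidronate, it was the lowest with GGOH after C1qb, and it rose by 2.40 ± 0.48 on the log2 scale (adjusted p = 0.00486). Of the 19 other selenoprotein genes tested, 8 were higher and 3 lower with GGOH than without (25.2% and 23.6% of all genes), and 8 were lower and 1 higher with pamidronate + GGOH than in control (26.0% and 26.3% of all genes). Among these 19, Gpx1 averaged 125 CPM with pamidronate + GGOH, 56.4 CPM with pamidronate and 195 CPM in control. In the same order of groups, Txnrd1 averaged 188, 148 and 160 CPM and Selenof 125, 67.5 and 155 CPM. Selenop was picked for its distance from control, so that these genes lay nearer to control follows in part from the rule. Timp2, an inhibitor of metalloproteinases, averaged 11.3 ± 3.78 CPM with pamidronate + GGOH, 5.46 ± 1.5 CPM with pamidronate and 43.8 ± 15 CPM in control (SD, n = 3 each). The treated libraries of Timp2 did not overlap, and its log2 difference of 0.89 ± 0.36 was not called (edgeR adjusted p = 0.0742). The call depended on the setting: Timp2 was called higher with DESeq2 (adjusted p = 0.00569), with only the 2 groups compared (0.0172), without scaling factors (0.043), and without control replicate 1 (0.0217) or pamidronate replicate 2 (0.0453).

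C1qb, a chain of the complement recognition protein C1q, was read 0, 0 and 1 times with pamidronate + GGOH, 0, 3 and 0 times with pamidronate and 15, 98 and 177 times in control. The control level was 255-fold that of pamidronate + GGOH (95% interval 45.4 to 10104) and 87.5-fold that of pamidronate (29.6 to 427). These intervals pool the reads of each group and cover counting error only, not the spread between libraries. The rule picked C1qb by its level relative to control, so these ratios and intervals are a description and carry no test. Control replicate 1 was far below the other 2, and at a mean of 5.47 CPM the gene only just met the control minimum, where C1qc at 4.85 CPM, Aif1 at 4.05 CPM and Lifr at 3.39 CPM did not.

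Of the enzymes, Gbgt1, the mouse Forssman glycolipid synthase, had 3.2, 6.69 and 7.86 CPM with pamidronate + GGOH, 0.721, 0.423 and 0.243 CPM with pamidronate and 14.1, 23.5 and 27.5 CPM in control. Its log2 increase of 3.49 ± 0.50 (adjusted p = 0.000285) came with no overlap between the groups. Cbr2, a carbonyl reductase, had 1.11, 1.18 and 2.85 CPM with pamidronate + GGOH, 0.601, 1.27 and 1.28 CPM with pamidronate and 14.2, 20.1 and 23.7 CPM in control. Hpgd, which inactivates prostaglandins, had 1.11, 0.557 and 2.79 CPM with pamidronate + GGOH, 1.32, 1.57 and 1.28 CPM with pamidronate and 10.1, 9.2 and 8.56 CPM in control. The treated groups of Cbr2 and Hpgd overlapped, and neither passed the test, at 0.56 ± 0.43 (adjusted p = 0.3) for Cbr2 and -0.03 ± 0.43 (adjusted p = 0.959) for Hpgd.

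The last 2 genes had overlapping libraries in the treated groups. Rny3, the small Y RNA bound by the Ro60 protein, averaged 6 ± 1.58 CPM with pamidronate + GGOH, 6.23 ± 1.95 CPM with pamidronate and 23.9 ± 4.06 CPM in control (SD, n = 3 each), and its neighbour Rny1 averaged 8.27 CPM with pamidronate + GGOH, 9.09 CPM with pamidronate and 11.4 CPM in control. Rcbtb2, a protein with RCC1 repeats and a BTB domain, averaged 14.6 ± 3.68 CPM with pamidronate + GGOH, 11.2 ± 3.21 CPM with pamidronate and 57.1 ± 23.1 CPM in control (SD, n = 3 each). Log2 differences were -0.22 ± 0.23 for Rny3 (edgeR adjusted p = 0.464) and 0.22 ± 0.40 for Rcbtb2 (edgeR adjusted p = 0.683), and neither was called. Per exon length, in the TPM values the authors deposited, the control level of the 32 genes ran from 2.97 for Clec1a to 568 for Rny3, with a median of 28.3 TPM, and Tmem176b (303 TPM) and Cx3cr1 (266 TPM) followed Rny3.

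Control spread differed widely among the 32. The coefficient of variation between control libraries was highest in C1qb (88.3%) and Cd300e (77.7%), followed by Mrc1 (49.1%), Cd28 (45.5%), Maf (44.9%) and Abca1 (43.7%). In all 6 of these, control replicate 1 was the lowest control. Rcbtb2, at 40.5%, went the other way, with 79.5, 58.3 and 33.3 CPM in control replicates 1, 2 and 3. Cd300e had 0.615, 1.67 and 2.22 CPM with pamidronate + GGOH, 0, 0.242 and 0.243 CPM with pamidronate and 1.85, 6.03 and 12.2 CPM in control, so that pamidronate + GGOH replicate 3 exceeded control replicate 1. Without control replicate 1, edgeR called Maf, Timp2 and Cd300e higher and Abca1 lower with GGOH than without. That library belongs to neither of the 2 groups. It enters through the shared estimate of spread, the scaling and the count filter, which sets the genes over which p is adjusted.

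**Figure D4:**
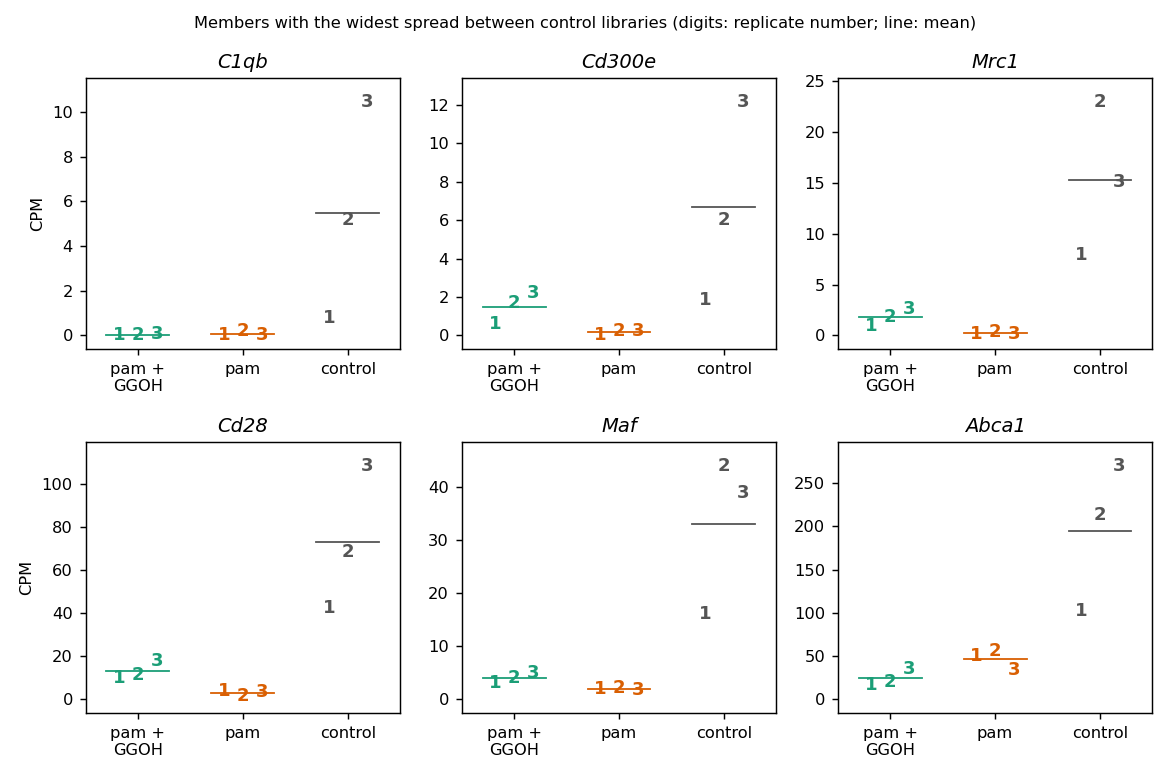
CPM of the 6 genes with the widest spread between control libraries, with each library drawn as its replicate number and group means as lines. Control replicate 1 is the lowest control in all 6, and in Cd300e, at 1.85 CPM, it lies below the 2.22 CPM of pamidronate + GGOH replicate 3.

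The 32 genes lay unevenly along the genome (GRCm38 coordinates). On chromosome 6 there were 9 of them, where 4.77% of the 9205 genes lie. Tmem176b (chr6:48833818-48841496, minus strand) and Tmem176a (chr6:48840919-48847071, plus strand) are divergent, their annotated RefSeq starts are 109 bases apart and their exons overlap, so reads there could count for either. Clec12a (chr6:129342691-129365303), Clec1a (chr6:129424772-129452000) and Clec7a (chr6:129461591-129472779) lie in 1 lectin cluster, with 9.59 kb between Clec1a and Clec7a, and Clec4a1 and Clec4a2 lie 172 kb apart in another. On chromosome 19, Ms4a6c (chr19:11469366-11482192) and BE692007 (chr19:11470166-11484578) are followed by Ms4a6b (chr19:11516512-11531256) after 31.9 kb. In the GENCODE annotation 29 of the 32 are protein coding, the others being Rny3 as a small RNA, BE692007 as a processed transcript and Clec7a as a polymorphic pseudogene. In all, 9 of the 32 share exon bases with another gene, among them Cx3cr1, Maf, Rcbtb2 and Ms4a6b with a gene on the other strand.

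Genes next to the 32 were examined after this clustering had been seen. Within 150 kb of a member, 128 other genes were tested. With pamidronate + GGOH against pamidronate 41 of the 128 were higher and 32 lower (32% and 25%), near the 25.2% and 23.6% of all genes. Against control 53 of the 128 were lower with pamidronate + GGOH (41.4%, against 26.0% of all genes) and 57 were lower with pamidronate (44.5%, against 32.9%). Ms4a6d, beside Ms4a6b, averaged 34.9 CPM with pamidronate + GGOH, 2.34 CPM with pamidronate and 70.4 CPM in control, or 49.6% of control with pamidronate + GGOH and 3.32% with pamidronate. Clec4a3, between Clec4a1 and Clec4a2, averaged 3.27 CPM with pamidronate + GGOH, 0.665 CPM with pamidronate and 10.6 CPM in control, and at 30.8% of control with pamidronate + GGOH lay just outside the rule. Further along that cluster, Clec4n averaged 17 CPM with pamidronate + GGOH, 2.78 CPM with pamidronate and 3.75 CPM in control, and was higher with pamidronate + GGOH than in control (log2 1.95 ± 0.22, edgeR adjusted p = 1.35e-05). Olr1, beside Clec7a, averaged 2.03 CPM with pamidronate + GGOH, 4.35 CPM with pamidronate and 0.626 CPM in control, and was higher than control with pamidronate + GGOH (log2 1.48 ± 0.38, edgeR adjusted p = 0.00442) and with pamidronate (log2 2.73 ± 0.35, edgeR adjusted p = 7.01e-06).

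**Figure D5:**
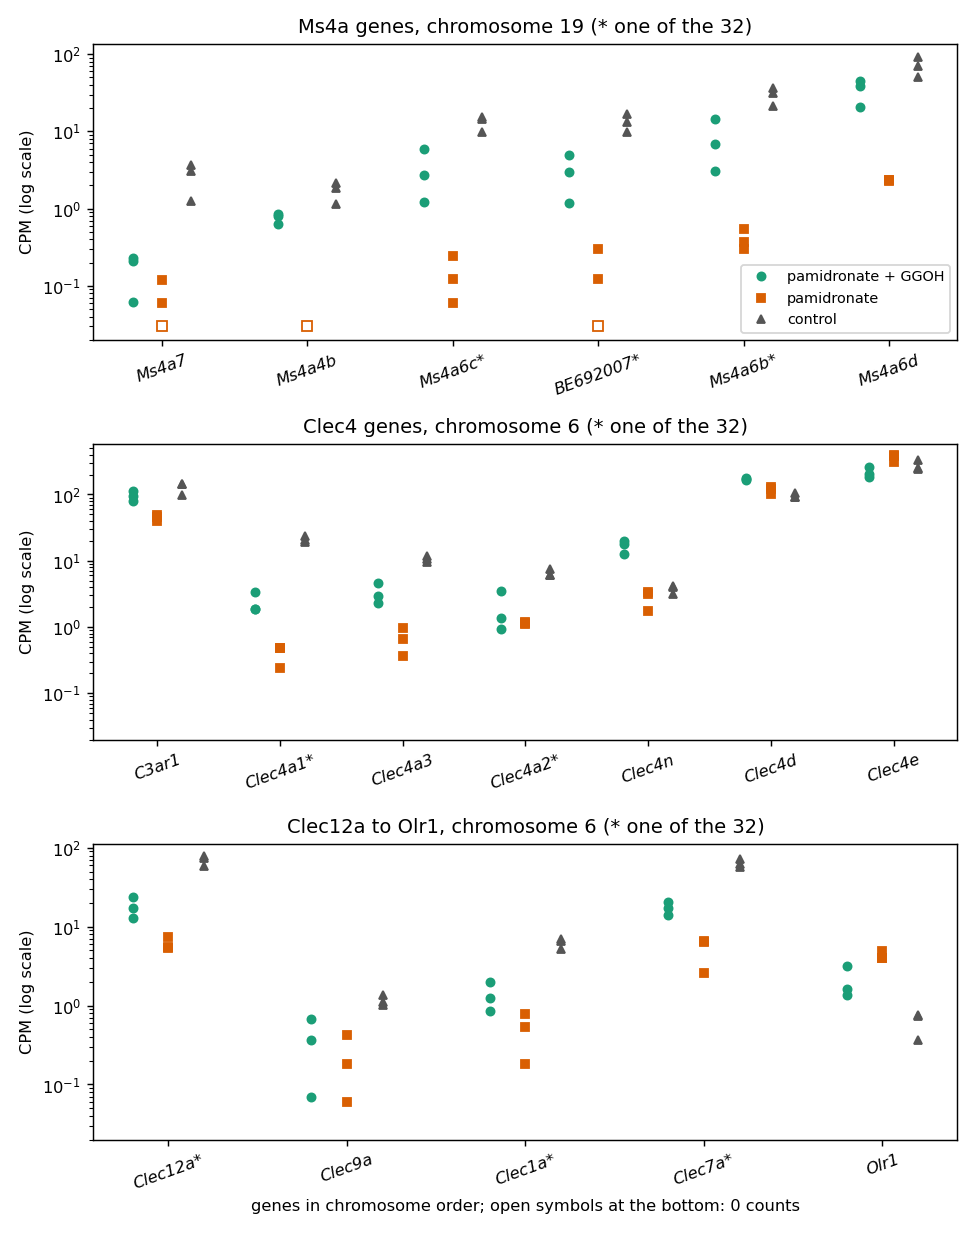
CPM in each library (log axis) of family members in 3 gene clusters, in chromosome order, with genes among the 32 marked by an asterisk and libraries at 0 counts drawn as open symbols. The Ms4a genes and Clec12a to Clec7a have control libraries highest, while Clec4n, Clec4d and Olr1 in the same clusters have controls below the pamidronate + GGOH libraries.

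Macrophage identity genes as a list held 6 of the 32, namely Cx3cr1, Selenop, Ms4a6b, Mrc1, Ms4a6c and C1qb. Of the 23 others tested, 21 were lower than control with pamidronate + GGOH and 21 with pamidronate, against 26.0% and 32.9% of all genes. With GGOH 13 were higher and 1 lower than without, against 25.2% and 23.6% of all genes. With pamidronate + GGOH, with pamidronate and in control, Lyz2 averaged 6448, 4186 and 12762 CPM, Cybb 816, 365 and 1970 CPM, and Laptm5 1630, 1390 and 1860 CPM. All 3 were lower than control in both treated groups. The list was drawn up with earlier results of these data known, and its overlap with the 32 is partly fixed by that choice.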

How the data were processed

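Raw counts per gene for 9 libraries and TPM values were used as the authors deposited them. The submitters' processing notes name Trimmomatic 0.36, genome build GRCm38 and DESeq, and no source used here states the aligner, the counter or the strand setting. Per-library count files held the same values as the count table (0 rows differed). CPM was each deposited count divided by its column sum. Percents of control, gaps covered and library overlaps used this CPM, without the TMM factors of the tests. Without those factors the median log2 value of pamidronate + GGOH against control was 0.23 higher, so CPM places that group nearer to control. Deposited TPM values served only to compare levels between genes. Tests used edgeR 4.0.16 in R 4.3.3 with 1 model of 3 group means, TMM factors, default count filter and robust quasi-likelihood, with Benjamini-Hochberg adjustment over 15963 genes and calls at an adjusted p under 0.05. Errors are SE of log2 fold changes unless marked SD. The script was tested on simulated data. DESeq2 1.42.0, limma 3.58.1 (voom), other factors, filters and thresholds, and leaving out each library were alternatives. Sampling-noise tests separated every pair of replicates (chi-square per degree of freedom 3.72 to 32.9). Genes named were those highest in control, listed, most or least changed, or nearest the limits of the rule, and neighbours named were chosen after their values were seen. The members and lists were chosen with earlier results of these data known. Values of 2 of the 32 genes are counted in the totals and not reported here one by one.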

Additional observations from a re-analysis of the deposited data

How the results depend on the processing

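The number of genes the rule selects moved most. It was 60 with TMM-scaled CPM, 53 with group medians, 59 with a ratio of at most 0.35 and 23 with 0.25, against 32 as reported, and 26 to 78 with 1 library left out, the highest without pamidronate + GGOH replicate 3 and 60 without control replicate 1. Every one of the 32 was kept under the first 3 of these. Genes called higher with GGOH than without numbered 17 to 25 over the 19 alternatives, and 16 of the 22 were called under all of them, with none of the 22 changing direction. Genes called lower numbered 1, Abca1, instead of 0 with DESeq2, limma-voom and only the 2 groups compared, and 0 to 1 with 1 library left out (1 without control replicate 1). Only uncalled genes changed sign, all 5 in leave-one-out fits, where log2 values ran from -0.84 to 0.39 for Hpgd, -0.10 to 0.91 for Clec4a2, -0.01 to 0.85 for Cbr2, -3.18 to 1.84 for C1qb and -0.42 to 0.04 for Rny3. Hpgd was also 0.13 without factors and 0.02 without a filter, against -0.03. The cause was not tested. Without factors the median of all genes moved by 0.17 between the treated groups, and the share of higher calls among all calls was 67.9% instead of 51.7%. Against control with pamidronate + GGOH it was 69.2% with upper-quartile factors and 72.6% without factors, instead of 50.3%. Replicate numbers did not pair the libraries, with correlations of same-numbered deviations from -0.22 to 0.20, and a replicate block gave 24 genes higher and 0 lower, calling Maf, Timp2 and Cd300e and losing Egr3. At 1 to 25 reads per group, as in C1qb and Clec1a, counting error limits the values. Summed reads with pamidronate were also that low in genes with large called increases. They were 7 for Ms4a6c and for BE692007, 10 for Mrc1, 19 for Slc9a9, 20 for Ms4a6b and for Clec4a1, and 23 for Gbgt1.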
